A study of Mus musculus with 23 samples.

Results

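Ethanol is cleared by a short chain of enzymes that lead from ethanol to acetaldehyde, from acetaldehyde to acetate, and from acetate to acetyl-CoA. The mRNA levels of 10 genes of this chain were examined in the mouse hippocampus, chosen by name from the 19733 genes of the deposited expression table. Adh1 and Adh5 encode alcohol dehydrogenases, Cyp2e1 encodes the ethanol-oxidizing microsomal cytochrome P450, and Cat encodes peroxisomal catalase. Aldh2, Aldh1a1, Aldh3a2 and Aldh9a1 encode aldehyde dehydrogenases, and Acss1 and Acss2 encode the mitochondrial and the nucleocytosolic acetyl-CoA synthetase. All 10 genes were found in the table and passed the filter on low values, a mean of at least 0.1 FPKM (fragments counted for a gene, scaled by transcript length and by the size of the library) over all mice.

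RNA sequencing had been carried out on hippocampal tissue of 23 male wild-type C57BL/6J mice, acquired at 6 weeks of age, in 3 groups. The 9 Ctrl mice received the AIN93M control liquid diet for 16 weeks with daily oral gavage of the vehicle, sodium carboxymethyl cellulose (CMC-Na). The 7 EtOH mice received the ethanol liquid diet with the same vehicle, and the 7 EtOH-UA mice received the ethanol diet with urolithin A (UA), a gut microbial metabolite of ellagitannins, at 200 mg/kg/day by gavage. All 3 groups were thus gavaged, and all went through 1 week of behavior tests. A group given UA with the control diet was not analysed here.

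In the liver, class I alcohol dehydrogenase, encoded in the mouse by Adh1, carries most ethanol oxidation, with CYP2E1 induced at high ethanol intake. The brain is known to make little class I enzyme, and local oxidation of ethanol there has been attributed mainly to catalase, which uses hydrogen peroxide, and to CYP2E1. Mitochondrial ALDH2 is the main acetaldehyde oxidase of most tissues, and the acetate made in the liver reaches the brain in the blood, where acetyl-CoA synthetases activate it for the citric acid cycle, lipid synthesis and histone acetylation. ADH5, the class III enzyme, is present in almost every tissue and mainly clears formaldehyde and S-nitrosoglutathione.

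Adh1 and Adh5 lie on the same strand of mouse chromosome 3 (GRCm38), Adh1 at chr3:138277585-138290698 and Adh5 at chr3:138437200-138455499, 146.5 kb apart. Their promoters are shown with that of Cyp2e1 because these genes stood at opposite ends of the range of hippocampal levels described below, Adh5 near the top and Adh1 and Cyp2e1 at the bottom. The sequences are the 250 bases before the annotated transcript start, from RefSeq for GRCm38.p6, written in the direction of transcription, with each CG and the TATA-box letters TATAAA (searched on both strands) in capitals. Adh5 has 2 annotated starts.
Adh1, chr3:138277335-138277584 (+ strand): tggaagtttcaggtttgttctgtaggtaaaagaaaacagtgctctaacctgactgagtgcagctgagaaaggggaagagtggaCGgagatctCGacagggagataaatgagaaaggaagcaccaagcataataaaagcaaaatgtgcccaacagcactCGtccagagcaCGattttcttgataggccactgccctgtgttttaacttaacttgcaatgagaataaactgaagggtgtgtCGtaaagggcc
Adh5, first start, chr3:138436950-138437199 (+ strand): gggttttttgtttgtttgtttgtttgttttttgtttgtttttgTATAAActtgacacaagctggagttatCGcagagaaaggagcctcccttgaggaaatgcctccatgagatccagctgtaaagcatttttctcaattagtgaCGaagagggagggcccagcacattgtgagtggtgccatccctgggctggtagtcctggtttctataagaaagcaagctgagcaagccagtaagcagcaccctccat
Adh5, second start, chr3:138442843-138443092 (+ strand): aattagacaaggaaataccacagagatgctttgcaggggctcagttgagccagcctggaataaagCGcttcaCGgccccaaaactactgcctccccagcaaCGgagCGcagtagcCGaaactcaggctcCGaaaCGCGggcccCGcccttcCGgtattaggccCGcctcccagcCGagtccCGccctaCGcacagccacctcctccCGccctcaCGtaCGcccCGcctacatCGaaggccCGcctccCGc
Cyp2e1, chr7:140763569-140763818 (+ strand): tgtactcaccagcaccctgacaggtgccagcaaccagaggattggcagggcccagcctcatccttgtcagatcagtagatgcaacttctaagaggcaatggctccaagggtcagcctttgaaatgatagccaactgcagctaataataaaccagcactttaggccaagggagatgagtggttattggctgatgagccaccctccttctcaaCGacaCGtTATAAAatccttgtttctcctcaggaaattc
The window before the second Adh5 start held 21 CG pairs, against a median of 6 over 32851 RefSeq promoter windows, and no TATAAA. The Adh1 window held 5 CG pairs and no TATAAA. The Cyp2e1 window and the window before the first Adh5 start held 2 CG pairs each and 1 TATAAA, which 12.4% of all windows contained on either strand. Windows were found for 9 of the 10 genes. Outside Adh5 and Cyp2e1 no window of a member contained TATAAA, and the number of CG pairs ranged from 1 in one of the windows of Aldh1a1 to 18 in Aldh3a2. These letters are a description of the windows and were not related to a measured factor.

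The tissue carried the markers of its label. All 10 markers of hippocampal neurons, among them Prox1 of dentate granule cells and Wfs1 and Fibcd1 of CA1 pyramidal cells, passed the filter, with a sum of 1391 to 1761 FPKM per mouse. Most of that sum came from Camk2a and Slc17a7, with means of 851 and 429 FPKM over all mice. Prox1, Wfs1 and Fibcd1 had means of 16.25, 30.1 and 24.6 FPKM, and Fibcd1 was as low as 3.62 FPKM in 1 EtOH-UA mouse. Markers of hepatocytes, the cells in which Adh1 and Cyp2e1 are abundant, summed to 0.03 to 0.73 FPKM, and Serpina1c and Cyp3a11 were listed at 0 in every mouse. Choroid plexus markers, led by Ttr, varied the most, with sums of 9.41 to 2997 FPKM in Ctrl mice, 73.0 to 5807 in EtOH mice and 17.7 to 7871 in EtOH-UA mice. The FPKM of all genes added up to 327896 to 404609 per mouse, and 2 EtOH-UA mice stood above all other mice, at 404609 and 379518. Read counts were not used here, so the depth behind each value is unknown.

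Of the 10 genes, 8 were expressed well above 1 FPKM in every mouse, and the other 2, Adh1 and Cyp2e1, stayed below 1 FPKM in every mouse. Because FPKM is scaled by transcript length, the levels of different genes can be set side by side. Aldh2 was the most abundant, with a mean of 30.7 FPKM over the 23 mice, followed by Adh5 at 28.7 FPKM, and Aldh2 was the higher of the pair in 16 of 23 mice. Next came Aldh1a1 at 22.0 FPKM, below Adh5 in 20 of 23 mice, and Cat at 19.7 FPKM, below Aldh1a1 in 18 of 23 mice. Aldh3a2 and Acss2 did not separate, at 18.3 and 18.2 FPKM, with Aldh3a2 higher in 12 of 23 mice. Aldh9a1 at 12.7 FPKM and Acss1 at 9.74 FPKM each lay below the gene before it in 23 of 23 mice. A wide gap followed: Cyp2e1 had a mean of 0.356 FPKM, 27.4-fold below Acss1, and Adh1 had 0.223 FPKM, below Cyp2e1 in 18 of 23 mice. Among all genes of the table Aldh2 stood at percentile 87.3 of mean level, Acss1 at percentile 64.8, Cyp2e1 at percentile 26.8 and Adh1 at percentile 23.6.

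**Figure D1:**
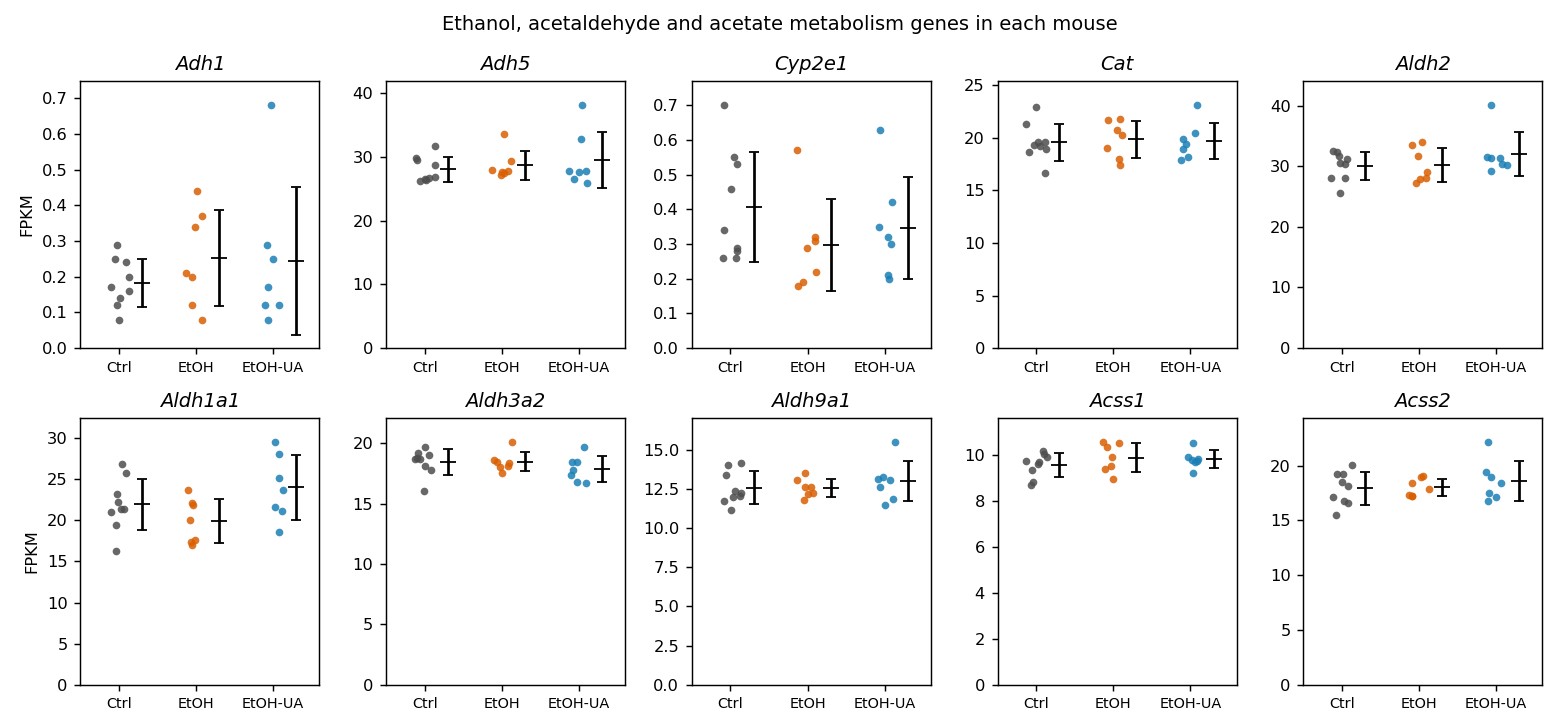
FPKM of the 10 genes (vertical axes, each from 0) in the 9 Ctrl, 7 EtOH and 7 EtOH-UA mice. Each point is 1 mouse, and the bar beside it is the group mean with its SD. The groups overlap for every gene. The highest mouse is an EtOH-UA mouse for Aldh1a1, at 29.5 FPKM, and for Adh1, Adh5, Aldh2, Aldh9a1, Cat and Acss2. It is an EtOH mouse for Aldh3a2 and Acss1 and a Ctrl mouse for Cyp2e1. For Adh1 the highest mouse stands apart at 0.68 FPKM.

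The first question was whether the alcohol diet went with a change of these genes in the hippocampus, by comparing EtOH with Ctrl mice. For the 8 abundant genes the means of the groups differed little: the fitted differences on the log2(FPKM + 0.1) scale ran from -0.13 for Aldh1a1 to 0.05 for Acss1. None of the 10 genes passed an adjusted p under 0.05 in limma, and the background was 0% of the 15986 genes tested, with a smallest adjusted p of 0.310. None of the 10 had an unadjusted limma p under 0.05 either, against a background of 3.05% (487 genes), and none had an exact permutation p under 0.05, against 3.32% (531 genes). None of the 10 had groups that did not overlap, against 0.00626% of all genes (1 gene). The median fitted log2 difference of the 10 genes was 0.0088, beside -0.0030 over all genes. Ependymal markers had a higher score in EtOH than in Ctrl mice, by 0.99 on the log2 scale (exact permutation p = 0.00629, unadjusted). This p was not adjusted for the number of marker scores and comparisons tested, so it does not establish a group difference. The part of ependymal cells in the values of the 10 genes was not tested. In bulk tissue fewer cells of a type and less RNA per cell cannot be told apart.

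Among the ethanol oxidases, Adh1 was barely detected in all groups. Its lowest, median and highest values were 0.08, 0.17 and 0.29 FPKM in Ctrl mice, 0.08, 0.21 and 0.44 FPKM in EtOH mice, and 0.08, 0.17 and 0.68 FPKM in EtOH-UA mice. The table is rounded to 0.01 FPKM, and Adh1 took only 14 distinct values in 23 mice, 0.08 FPKM in 3 mice and 0.12 FPKM in 4 with none between. The EtOH mean was 0.251 ± 0.135 FPKM (SD, n = 7) and the Ctrl mean 0.183 ± 0.0676 FPKM (SD, n = 9). The fitted log2 difference was 0.25 ± 0.27 (SE), with a two-sided exact permutation p of 0.217 on the mean FPKM. Leaving out single mice moved it from 0.13, without the EtOH mouse at 0.44 FPKM, to 0.40, without the EtOH mouse at 0.08 FPKM. The choroid plexus marker score, the mean centred log2 level of its markers, was 1.63 higher in EtOH than in Ctrl mice (exact permutation p = 0.0934, unadjusted). With that score in the fit the Adh1 difference became -0.07, and the part of choroid plexus in the Adh1 values was not tested.

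Adh5, which shares the chromosome and strand of Adh1, was 129-fold more abundant over all mice. It ran from 26.2 over a median of 26.8 to 31.7 FPKM in Ctrl mice, from 27.2 over 27.7 to 33.5 FPKM in EtOH mice, and from 25.9 over 27.8 to 38.1 FPKM in EtOH-UA mice. All 7 EtOH mice lay above the Ctrl median, yet the groups overlapped, and the fitted difference was 2.24% with a 95% interval of -7.27% to 12.7%.

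Cyp2e1, whose protein is induced by ethanol in the liver, had the largest fitted difference of the 10 genes between EtOH and Ctrl mice, and its mean was lower in EtOH mice. Its lowest, median and highest values were 0.26, 0.34 and 0.70 FPKM in Ctrl mice, 0.18, 0.29 and 0.57 FPKM in EtOH mice, and 0.20, 0.32 and 0.63 FPKM in EtOH-UA mice. Only 1 of the 7 EtOH mice lay above the Ctrl median, and 4 Ctrl mice at 0.46 to 0.70 FPKM made up the upper end of that group. The means were 0.408 ± 0.159 FPKM (SD, n = 9) in Ctrl and 0.297 ± 0.133 FPKM (SD, n = 7) in EtOH mice. The log2 difference was -0.35 ± 0.21 (SE), with an exact permutation p of 0.160 and a limma adjusted p of 0.999, so the difference was within the spread between mice. At this level the value depends on the pseudocount, and with 1 in place of 0.1 the log2 difference was -0.12. Without the EtOH mouse at 0.57 FPKM the log2 difference was -0.49, and without the Ctrl mouse at 0.70 FPKM it was -0.27. Over every alternative run the unadjusted limma p of Cyp2e1 was as low as 0.0255, while the adjusted p stayed at or above 0.564.

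Cat, the gene of the hydrogen peroxide dependent route, was the most abundant of the oxidases attributed to brain ethanol oxidation. Its lowest, median and highest values were 16.6, 19.3 and 22.9 FPKM in Ctrl mice, 17.4, 20.2 and 21.8 FPKM in EtOH mice, and 17.9, 19.4 and 23.1 FPKM in EtOH-UA mice. EtOH mice differed from Ctrl mice by 1.45%, with a 95% interval of -7.32% to 11.04%.

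Of the aldehyde dehydrogenases, Aldh2 had nearly equal means in EtOH and Ctrl mice. It ran from 25.6 over a median of 30.5 to 32.6 FPKM in Ctrl mice, from 27.3 over 29.1 to 34.0 FPKM in EtOH mice, and from 29.2 over 31.3 to 40.0 FPKM in EtOH-UA mice. The EtOH mean of 30.2 ± 2.81 FPKM (SD, n = 7) and the Ctrl mean of 30.0 ± 2.33 FPKM (SD, n = 9) differed by less than either SD, and the 95% interval of the fitted difference was -8.51% to 10.3%. Aldh1a1, the cytosolic enzyme that also oxidizes retinaldehyde and marks some dopamine neurons, had a lower mean in EtOH mice, 19.95 ± 2.65 FPKM (SD, n = 7), than in Ctrl mice, 21.9 ± 3.14 FPKM (SD, n = 9). The fitted difference was -8.88% with a 95% interval of -21.2% to 5.31% and an exact permutation p of 0.197. Of 5 markers of midbrain dopamine neurons 3 passed the filter, with means of 3.84 FPKM for Ddc, 1.74 FPKM for Slc18a2 and 0.272 FPKM for Th. In no mouse did Slc6a3 have more than 0.13 FPKM or Pitx3 more than 0.12 FPKM.

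Aldh3a2, which oxidizes long-chain fatty aldehydes, and Aldh9a1, which oxidizes aminoaldehydes, were the most alike of all between EtOH and Ctrl mice. Aldh3a2 had medians of 18.7 FPKM among Ctrl, 18.4 FPKM among EtOH and 17.8 FPKM among EtOH-UA mice and lay between 16.03 and 20.10 FPKM in all 23 mice. Aldh9a1 had medians of 12.2, 12.6 and 13.1 FPKM in the same order and lay between 11.2 and 15.5 FPKM. Their 95% intervals for EtOH against Ctrl were -5.94% to 6.74% for Aldh3a2 and -7.80% to 8.93% for Aldh9a1.

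The acetate-activating genes also stayed within narrow limits. Acss1 had a lowest, median and highest value of 8.69, 9.72 and 10.2 FPKM in Ctrl mice, 8.96, 9.93 and 10.6 FPKM in EtOH mice, and 9.21, 9.78 and 10.5 FPKM in EtOH-UA mice. Acss2 had 15.5, 18.2 and 20.04 FPKM in Ctrl mice, 17.3, 17.9 and 19.0 FPKM in EtOH mice, and 16.7, 18.4 and 22.2 FPKM in EtOH-UA mice. For EtOH against Ctrl the 95% interval was -3.11% to 10.3% for Acss1 and -7.22% to 9.44% for Acss2. The ratio of Acss2 to Acss1 within a mouse was 1.88 ± 0.143 (SD) in the 9 Ctrl mice, 1.83 ± 0.145 (SD) in the 7 EtOH mice and 1.90 ± 0.18 (SD) in the 7 EtOH-UA mice. No comparison of the groups separated these ratios, with exact permutation p-values of 0.450 to 0.845 over 4 comparisons.

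The second question was whether UA changed these genes in mice on the alcohol diet, by comparing EtOH-UA with EtOH mice. Aldh1a1 had the largest fitted difference of the 10 genes, a higher mean in EtOH-UA mice that did not pass the correction over all genes. In EtOH mice it had a lowest, median and highest value of 17.0, 19.99 and 23.7 FPKM, and in EtOH-UA mice of 18.6, 23.7 and 29.5 FPKM, while Ctrl mice had 16.3, 21.4 and 26.8 FPKM. Of the 7 EtOH-UA mice 6 lay above the EtOH median, and the groups overlapped between 18.6 and 23.7 FPKM. The means were 24.0 ± 3.91 FPKM (SD, n = 7) in EtOH-UA and 19.95 ± 2.65 FPKM (SD, n = 7) in EtOH mice. The fitted difference was 19.8%, with a 95% interval of 2.73% to 39.6%, a two-sided exact permutation p of 0.0425 and an unadjusted limma p of 0.0231. The limma p adjusted over all genes was 0.900.

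Counted over the 10 genes, 1 had an unadjusted limma p under 0.05 for EtOH-UA against EtOH, beside a background of 3.27% (523 genes), and 1 had an exact permutation p under 0.05, beside 2.93% (468 genes). With 10 genes counted, 1 call is too few to set apart from that background. None passed the adjusted threshold, beside 0% of all genes, and none had groups that did not overlap, beside 0.025% (4 genes). The Aldh1a1 difference was above 0 on the log2 scale under every alternative run, from 0.18 to 0.32, and its unadjusted limma p ranged from 0.00597 to 0.0646. It was 0.18 with the hippocampal neuron score in the fit and 0.26 without. The hippocampal neuron score itself differed between these groups by 0.07 on the log2 scale (exact permutation p = 0.314), and the astrocyte score by 0.0094 (exact permutation p = 0.808). EtOH-UA and Ctrl mice differed in Aldh1a1 by 9.14%, with a 95% interval of -5.56% to 26.1%. The EtOH mice enter both of the first comparisons, so the lower Aldh1a1 mean against Ctrl and the higher EtOH-UA mean are not independent of each other.

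**Figure D2:**
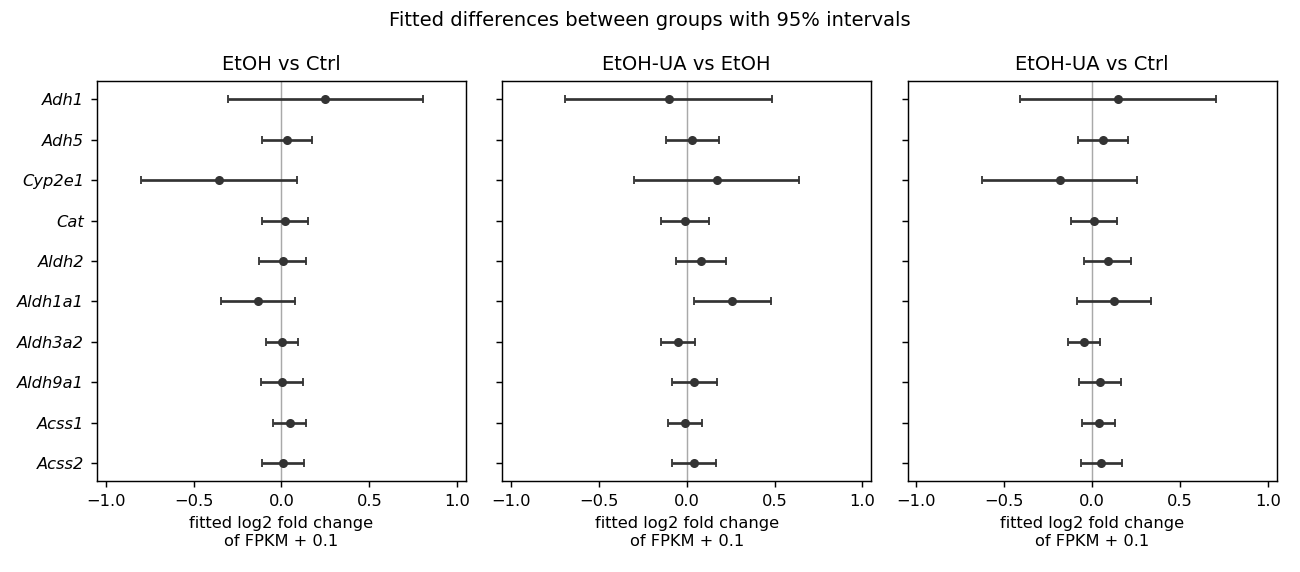
Fitted log2 differences of FPKM + 0.1 between groups (horizontal axis) for the 10 genes (vertical axis), with points at the estimate and bars for the 95% interval of the limma fit, in 3 comparisons. The interval excludes 0 only for Aldh1a1 between EtOH-UA and EtOH mice, before correction, and the intervals of Adh1 and Cyp2e1 are the widest.

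None of the other 9 genes had an unadjusted limma p or an exact permutation p under 0.05 between EtOH-UA and EtOH mice. Aldh2 had a mean of 32.0 ± 3.65 FPKM (SD, n = 7) in EtOH-UA mice, 5.84% above EtOH mice by the fit, with a 95% interval of -4.15% to 16.9%. All 7 EtOH-UA mice lay above the EtOH median for Aldh2, and the exact permutation p was 0.351. On the log2 scale the Aldh2 difference was 0.08, and it was 0.03 without the EtOH-UA mouse at 40.0 FPKM and 0.02 without the 2 EtOH-UA mice of highest summed FPKM. Aldh3a2 had the lowest fitted value of the abundant genes, -3.25%, with a 95% interval of -9.53% to 3.46%. The intervals were -7.82% to 13.4% for Adh5, -9.79% to 9.28% for Cat, -5.69% to 12.5% for Aldh9a1, -7.28% to 6.41% for Acss1 and -5.64% to 12.4% for Acss2. For the low genes the log2 differences were -0.10 ± 0.29 (SE) for Adh1 and 0.17 ± 0.23 (SE) for Cyp2e1. The ratio of Aldh1a1 to Aldh2 within a mouse averaged 0.735 for Ctrl, 0.661 for EtOH and 0.759 for EtOH-UA mice, with an exact permutation p of 0.170 for EtOH-UA against EtOH mice.

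The remaining comparisons set EtOH-UA mice, and then all 14 alcohol-fed mice, against Ctrl mice, and they share the Ctrl mice with the first comparison. For EtOH-UA against Ctrl none of the 10 genes passed the adjusted threshold (background 0%), an unadjusted limma p under 0.05 (background 3.08%) or the test of groups that do not overlap (background 0.0125%), and none had an exact permutation p under 0.05 (background 2.81%). For all alcohol-fed against Ctrl mice the count was likewise 0 by each of these rules, beside backgrounds of 0%, 2.93% and 0.00626%, and 3.08% for the exact permutation p. Cyp2e1 had the largest fitted log2 difference in both, -0.18 ± 0.21 (SE) for EtOH-UA and -0.27 ± 0.18 (SE) for all alcohol-fed mice, with exact permutation p-values of 0.457 and 0.192. The log2 difference of Adh1 was 0.15 ± 0.27 (SE) for EtOH-UA and 0.20 ± 0.23 (SE) for all alcohol-fed mice, and without the EtOH-UA mouse at 0.68 FPKM these were -0.08 and 0.09. The erythrocyte marker score was 0.72 higher for EtOH-UA against Ctrl mice (exact permutation p = 0.00997). This p was likewise not adjusted for the 13 scores and 4 comparisons, and the part of erythrocytes was not tested. With 14 alcohol-fed mice the 95% intervals of the 8 abundant genes were at their narrowest, from -6.59% to 3.99% for Aldh3a2 to -11.8% to 12.7% for Aldh1a1. The median fitted log2 difference of the 10 genes was 0.05 for EtOH-UA and 0.03 for all alcohol-fed mice, beside 0.0024 and -0.0012 over all genes.

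The wider families were described from lists of related genes. Of the other alcohol dehydrogenase genes, Adh4, Adh6a, Adh6b and Adh7 all fell below the filter, with Adh6b the highest of them at a mean of 0.0270 FPKM. Akr1a1, the aldehyde reductase and the 1 of 5 genes of that list past the filter, had a mean of 169 FPKM over all mice. Its fitted difference between EtOH and Ctrl mice was -5.48%, with a 95% interval of -18.7% to 9.82%. Of 20 other aldehyde dehydrogenase and aldehyde oxidase genes 18 passed the filter, led by Aldh7a1 at 26.8 FPKM and Aldh6a1 at 25.5 FPKM, which act in lysine and in valine breakdown. The levels of Aldh2, Aldh1a1, Aldh3a2 and Aldh9a1 thus sat among those of other abundant members of their family, whereas Adh5 was the only one of these 6 alcohol dehydrogenase genes above 1 FPKM.

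**Figure D3:**
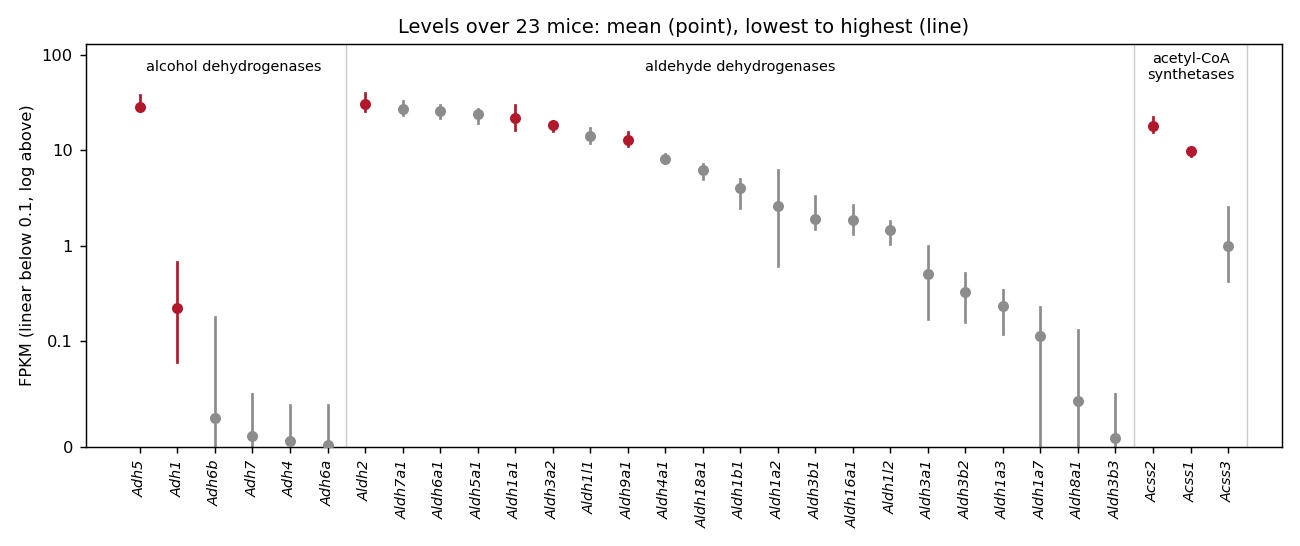
FPKM over 23 mice (vertical axis, linear below 0.1 and logarithmic above) for the alcohol dehydrogenase, aldehyde dehydrogenase and acetyl-CoA synthetase genes, with points at the mean and lines from the lowest to the highest mouse. The 8 members in these families are red and the related genes grey. Adh5 at 28.7 FPKM is the only alcohol dehydrogenase drawn above 1 FPKM.

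None of the 57 related genes that passed the filter had an adjusted p under 0.05 in any comparison. At an unadjusted limma p under 0.05, 1 of 57 was higher and 0 lower in EtOH against Ctrl mice, 1 higher and 1 lower in EtOH-UA against EtOH mice, and 2 higher and 0 lower in EtOH-UA against Ctrl mice. For all alcohol-fed against Ctrl mice 2 were higher and 0 lower. Over all genes 3.05%, 3.27%, 3.08% and 2.93% were called in these 4 comparisons in the same order, so the related genes were called about as often as genes at large. The genes are named by rule, and their values are not results about the lists. The gene higher in EtOH mice was Aldh3b1, which oxidizes medium and long-chain aldehydes, at 2.08 ± 0.283 FPKM (SD, n = 7) against 1.71 ± 0.157 FPKM (SD, n = 9), with 6 of 7 EtOH mice above the Ctrl median. Its fitted log2 difference was 0.26 ± 0.12 (SE), with an exact permutation p of 0.00559 and a limma adjusted p of 0.999.

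Of the 17 genes of acetate and acetyl-CoA handling, which include Pdha1 at 99.7 FPKM and the citrate synthase gene Cs at 94.7 FPKM, 1 gene, Acaca, reached an unadjusted limma p under 0.05 in any of the 4 comparisons, each with a background of 2.93% to 3.27% of all genes. Acaca, the acetyl-CoA carboxylase of fatty acid synthesis, was lower in EtOH-UA than in EtOH mice, 10.4 ± 1.12 against 11.5 ± 0.450 FPKM (SD, n = 7 each), with 0 of 7 EtOH-UA mice above the EtOH median and an exact permutation p of 0.0163. The 16 partners of CYP2E1 and catalase were led by Sod1 at 214 FPKM and Gpx4 at 175 FPKM. In that list Prdx6, a peroxiredoxin, had a mean of 88.9 ± 11.7 FPKM in EtOH-UA against 77.8 ± 7.23 FPKM in EtOH mice (SD, n = 7 each), with an unadjusted limma p of 0.0195 and an exact permutation p of 0.0525. Sod3, the extracellular superoxide dismutase, had 4.36 ± 1.45 FPKM in EtOH-UA (SD, n = 7) against 3.28 ± 0.551 FPKM in Ctrl mice (SD, n = 9), with an exact permutation p of 0.0413.

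For non-oxidative ethanol metabolism 5 of 8 listed genes passed the filter, led by Sult1a1 at 8.67 FPKM, a sulfotransferase that can conjugate ethanol, and Pld2 at 5.95 FPKM, a phospholipase D. The means of Sult1a1 in Ctrl, EtOH and EtOH-UA mice were 7.54 FPKM with an SD of 1.45, 8.54 FPKM with an SD of 2.25, and 10.3 FPKM with an SD of 2.50. All 7 EtOH-UA mice lay above the Ctrl median, and the log2 difference of 0.43 ± 0.15 (SE) had an exact permutation p of 0.00839 and a limma adjusted p of 0.999.

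The genes differed in how much they varied between mice of the same group. Acss1 and Aldh3a2 were among the steadiest genes of the tissue, with within-group SDs of 0.08 on the log2 scale each. Only 5.13% and 5.78% of the 12904 genes at or above a mean of 1 FPKM had a smaller SD. Aldh1a1 was the most variable of the abundant members, with a within-group SD of 0.21, above 70.8% of these genes. The low genes Adh1 and Cyp2e1 had SDs of 0.55 and 0.43.

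Part of this variation moved with other properties of the libraries. Over the 23 mice, after subtraction of group means, Adh5 followed the summed FPKM of the library with Pearson's r of 0.967 and Spearman's rho of 0.891. The permutation p was 1e-05 for both, the smallest that 100000 permutations can give, and 0.0008 after Benjamini-Hochberg adjustment over 80 relations, those of the 10 genes with 8 measures of the library. Without the 2 mice farthest from the median in summed FPKM r was 0.930. In each group the mouse with the highest Adh5 was the mouse with the highest summed FPKM, at 31.7 FPKM for Ctrl, 33.5 FPKM for EtOH and 38.1 FPKM for EtOH-UA mice. The genes most like Adh5 over the mice were Pebp1 (r = 0.974), Psmc5 (r = 0.968) and Aldoa (r = 0.968). Here and for the members below, such matches are the highest r of a search over the 12904 genes at or above a mean of 1 FPKM. A high r is found in so wide a search by chance too, and the matches were not tested.

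Aldh1a1 followed the hippocampal neuron score, with r = 0.726 and rho = 0.661, permutation p-values of 0.00011 and 0.00081, and 0.0044 and 0.0162 after adjustment. Without the 2 farthest mice r was 0.657. Among single genes, however, Aldh1a1 was most like Gfap, the astrocyte intermediate filament gene (r = 0.829), Inka2 (r = 0.802) and Ankrd40 (r = 0.787). The astrocyte score as a whole gave r = 0.470 with an adjusted permutation p of 0.101. The oligodendrocyte score gave r = 0.553 and the endothelium score r = 0.547, with adjusted permutation p-values of 0.0482 each by Pearson's r and 0.0665 each by rank.

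Adh1 followed the choroid plexus score, with r = 0.686 and rho = 0.731, permutation p-values of 0.00032 and 0.00017, and 0.00853 and 0.0068 after adjustment. It also followed the score of meningeal and vascular fibroblasts, with r = 0.621 and rho = 0.703, and adjusted p-values of 0.0227 and 0.00827. Without the 2 farthest mice r was 0.697 and 0.665. The EtOH-UA mouse with Adh1 at 0.68 FPKM had the highest choroid plexus score of its group.

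**Figure D4:**
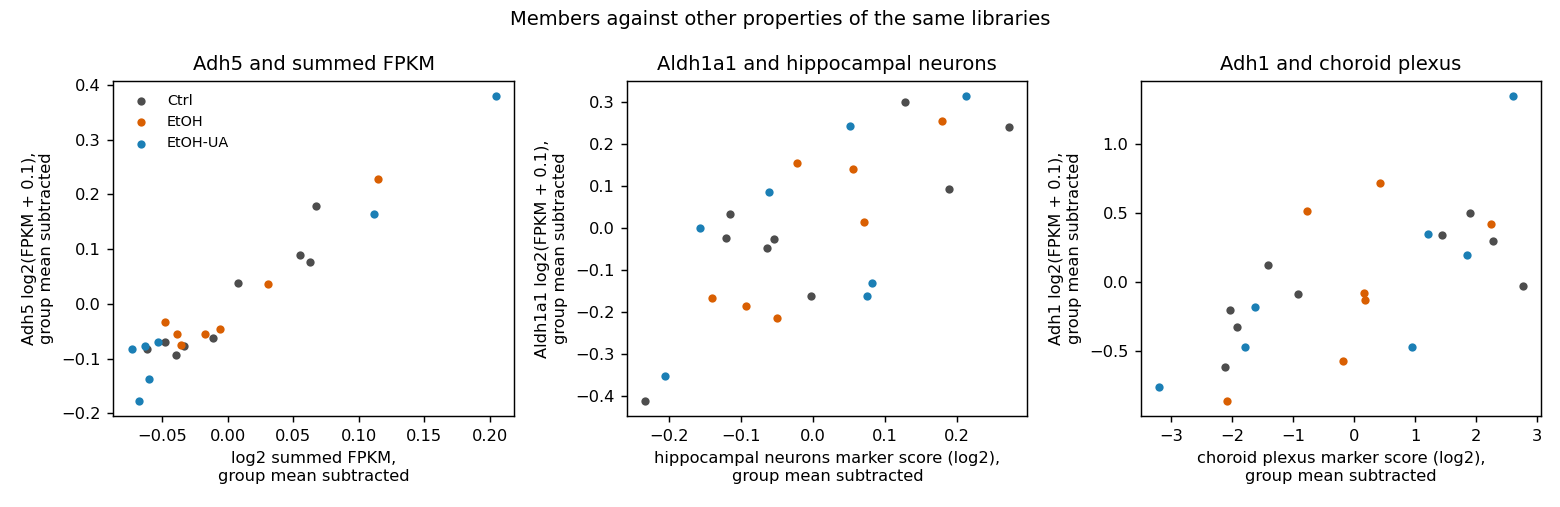
Each point is 1 of 23 mice, colored by group, with the group mean subtracted on both axes. The panels set Adh5 against the log2 summed FPKM (r = 0.967), Aldh1a1 against the hippocampal neuron marker score (r = 0.726) and Adh1 against the choroid plexus marker score (r = 0.686), with log2(FPKM + 0.1) of the gene on the vertical axis.

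Aldh2 followed both the endothelium score (r = 0.595, adjusted permutation p = 0.0261) and the choroid plexus score (r = 0.588, adjusted permutation p = 0.0261). By rank the adjusted p-values were 0.0346 and 0.0665, so the second relation passed by Pearson's r alone. The genes most like Aldh2 were Acaa2, a thiolase of mitochondrial fatty acid oxidation (r = 0.896), Tinagl1 (r = 0.894) and Nxn (r = 0.885). Aldh3a2 was most like Sqle, the squalene epoxidase of cholesterol synthesis (r = 0.846), Il34 (r = 0.822) and Sstr1 (r = 0.801). Cat was most like Smo (r = 0.832), Lsr (r = 0.824) and Lman2l (r = 0.806). With the choroid plexus score Cat had r = 0.546, with an adjusted permutation p of 0.0482, and of 0.0777 by rank. Acss2 was most like Acadvl, an acyl-CoA dehydrogenase of fatty acid oxidation (r = 0.885), Sh3bp5l (r = 0.852) and Slc35a4 (r = 0.841). Aldh9a1 was most like Dcaf11 (r = 0.827), its relative Aldh7a1 (r = 0.815) and Gnl2 (r = 0.798). Acss1, the steadiest member, had the lowest r with its best match, Bin2 (r = 0.764), followed by Pola2 (r = 0.718) and Ephb4 (r = 0.689). All these matches were picked as the highest of the search and were not tested.

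Among the 8 abundant members 28 pairs were compared. The closest pair was Aldh9a1 with Acss2, with r = 0.715 and rho = 0.648, permutation p-values of 0.00013 and 0.00096, and 0.00364 and 0.012 after adjustment over the 28 pairs. Aldh3a2 with Aldh9a1 followed with r = 0.675 and rho = 0.622, with adjusted permutation p-values of 0.00616 and 0.0148. Without the 2 farthest mice r was 0.560 and 0.501. Aldh9a1 (r = 0.627), Acss2 (r = 0.600) and Aldh3a2 (r = 0.599) each also followed the summed FPKM of the library, with adjusted permutation p-values of 0.0227, 0.0261 and 0.0261, and of 0.126, 0.0777 and 0.0515 by rank. The part of the summed FPKM in these pairs was not tested. Aldh2, the mitochondrial acetaldehyde oxidase, followed Acss1, the mitochondrial acetyl-CoA synthetase, with r = 0.595 and rho = 0.702 and adjusted permutation p-values of 0.02 and 0.00868. The r of Aldh2 was 0.565 with the nucleocytosolic Acss2 (adjusted permutation p = 0.0229). With Cat and Aldh9a1 it was 0.523 and 0.522 (adjusted permutation p = 0.0342 each). By rank the adjusted p-values of these pairs were 0.0716, 0.123 and 0.285. Without the 2 farthest mice r was 0.370, 0.444 and 0.184. The endothelium score gave r = 0.595 with Aldh2 and 0.522 with Acss1 (adjusted permutation p = 0.0261 and 0.0577), and its part was not tested. Adh5 and Aldh2, the most abundant members, had r = 0.479 (adjusted permutation p = 0.0562), which rested on the 2 farthest mice, since r was -0.028 without them.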

How the data were processed

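Hippocampal RNA of 23 mice (9 Ctrl, 7 EtOH, 7 EtOH-UA) had been sequenced. The authors aligned reads to mm10 (GRCm38) and deposited FPKM to 2 decimals in 1 table of 19733 genes. The submitters' processing notes name HISAT2 2.1.0, Bowtie2 2.2.5 and RSEM 1.2.8. The labels name total RNA and the methods poly(A)+ RNA. The count test of the methods was not applied, because FPKM are not counts, and how reads shared by near-identical genes were divided was not given in the sources used here. Columns were assigned to groups by name, since no label ties the numbers in the column names to the replicate numbers of the samples. Every mouse was kept.

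The 15986 genes whose mean reached 0.1 FPKM were fitted as log2(FPKM + 0.1) with limma 3.58.1 in R 4.3.3, as 3 groups without a covariate, with an intensity trend, with Benjamini-Hochberg adjustment across these genes and a threshold of 0.05. The log2(FPKM + 0.1) scale understates changes of genes below 1 FPKM. For single genes and ratios, differences of means were also given exact permutation p-values (two-sided). P-values set a group difference or a correlation against the spread between mice. With 1 library per mouse, variation between mice and between libraries cannot be told apart. Correlations used 100000 permutations (Python 3.11.15, scipy 1.17.1). Fits were tested on simulated data first.

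The members and lists were chosen with earlier results of these data known. Named genes were the 10 members, the 2 most abundant genes of each of 5 lists of related genes with every one at an unadjusted p under 0.05, and the 3 genes most correlated with each member above 1 FPKM.

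Marker lists scored 13 cell types or regions, each as the mean of the centred log2 levels of its markers. Summed marker levels over all mice ran from 647 to 857 FPKM for astrocytes, 33.7 to 104 for meningeal and vascular fibroblasts, 6.88 to 29.2 for ependyma, 79.1 to 114 for endothelium, 62.3 to 85.9 for pericytes and smooth muscle, 126 to 186 for microglia, 1006 to 2289 for oligodendrocytes, 29.3 to 276 for erythrocytes, 4.37 to 7.42 for midbrain dopamine neurons and 36.2 to 83.2 for thalamus and striatum.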

Additional observations from a re-analysis of the deposited data

Results flagged for a closer look

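In 5 of 30 sets of values, 1 gene in 1 group each, the highest mouse lay farther from the next than Dixon's critical value allows, where chance alone gives about 1 in 20, or 1.5 of 30. In EtOH-UA mice Adh1 reached 0.68 FPKM in 1 mouse with the next at 0.29 FPKM, and Aldh2 reached 40.04 FPKM in the same mouse with the next at 31.49 FPKM. That mouse also had the highest summed FPKM of all mice, 404609. In EtOH mice Adh5 reached 33.54 FPKM in 1 mouse with the next at 29.34 FPKM, and this mouse had the highest summed FPKM of its group, 366930. Aldh3a2 reached 20.1 FPKM in 1 EtOH mouse with the next at 18.63 FPKM. Cyp2e1 reached 0.57 FPKM in 1 EtOH mouse with the next at 0.32 FPKM. The cause of these gaps was not tested.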

How the results depend on the processing

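No paired analysis was possible because no label ties the numbers in the column names to the replicate numbers of the samples. Nor are the replicate numbers known to mark pairs. The paper states random assignment of mice to groups, and mentions pair-feeding without saying which mice were paired. The alternatives were 14 other settings and 23 fits that left out 1 mouse each, and under none did a member pass an adjusted p under 0.05 (smallest adjusted p 0.564). Of 951 recomputed log2 differences, 879 kept their direction and 72, of genes whose main value was within the spread between mice, changed sign. The 951 covered every member for EtOH against Ctrl and for EtOH-UA against EtOH mice. For EtOH-UA and for all alcohol-fed against Ctrl mice they covered Adh1, Aldh1a1 and Cyp2e1 only. With the filter at a mean of 1 FPKM Adh1 and Cyp2e1 have no value. The last 3 settings were chosen after seeing the data: the hippocampal neuron score, the astrocyte score, and leaving out the 2 EtOH-UA mice of highest summed FPKM.

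For EtOH against Ctrl, array quality weights gave 1 gene called over all genes, and log2 differences of -0.026 for Aldh2, -0.0017 for Aldh3a2, -0.011 for Aldh9a1, -0.0027 for Cat and -0.023 for Acss2. The choroid plexus score as covariate gave -0.073 for Adh1, -0.060 for Aldh2, -0.0035 for Aldh3a2, -0.038 for Cat and -0.00020 for Acss2. The meningeal score gave -0.0077 for Aldh2, the hippocampal neuron score -0.0029 for Aldh3a2 and -0.0022 for Aldh9a1, and the astrocyte score -0.0012 for Aldh9a1. For EtOH-UA against EtOH, Adh5 was -0.0023 with quantile normalization, -0.024 with array quality weights and -0.077 without the 2 mice of highest summed FPKM, which also gave -0.012 for Aldh9a1 and -0.016 for Acss2, and Cat was 0.0061 with the choroid plexus score. Adh1 in EtOH-UA against Ctrl was -0.028 with array quality weights, -0.0016 with the meningeal score and -0.085 with the choroid plexus score, and in all alcohol-fed mice -0.079 with the choroid plexus score. The causes were not tested.

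With 1 mouse left out, 0 to 1 genes were called over all genes in each comparison, and 0 in the fits with all mice. The 1 gene appeared without the Ctrl mouse of highest Cyp2e1 for EtOH and for all alcohol-fed against Ctrl mice, and without either of 2 EtOH-UA mice, those with Aldh1a1 at 29.5 and 21.2 FPKM, in the other 2 comparisons. The log2 differences of EtOH against Ctrl that changed sign ran from -0.0060 to 0.054 for Adh5, -0.023 to 0.030 for Aldh2, -0.022 to 0.015 for Aldh3a2, -0.017 to 0.025 for Aldh9a1, -0.0081 to 0.051 for Cat and -0.014 to 0.032 for Acss2. For EtOH-UA against EtOH they ran from -0.33 to 0.025 for Adh1, -0.031 to 0.070 for Adh5, -0.049 to 0.013 for Cat and -0.033 to 0.0065 for Acss1. Adh1 in EtOH-UA against Ctrl ran from -0.077 to 0.28, and Aldh1a1 in all alcohol-fed mice from -0.055 to 0.034. Cat, not among the 951 for these groups, also changed sign, from -0.028 to 0.040 for EtOH-UA and from -0.013 to 0.045 for all alcohol-fed against Ctrl mice. The counts of all genes at an unadjusted limma p under 0.05 moved most with array quality weights, to 1403 for EtOH against Ctrl, 865 for EtOH-UA against EtOH, 1067 for EtOH-UA against Ctrl and 1341 for all alcohol-fed mice. Leaving out the 2 EtOH-UA mice gave 981 and 1126 in the last 2, and the filter at 1 FPKM 248 for EtOH and 245 for all alcohol-fed mice against Ctrl.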
